A study of Mus musculus with 16 samples.

Results

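The 9 genes described here, Itgax, Pparg, Fabp1, Fabp4, Krt79, Cidec, Plet1, Fbp1 and Cd200r4, are genes that mouse alveolar macrophages are known to express, several of them with roles in lipid handling. They were taken by symbol from the platform annotation, out of 19938 genes measured in total lung RNA. A gene's probe set was chosen by its mean level over all 16 arrays, but each of the 9 had 1 probe set, so this value decided nothing among them. The genes were picked with earlier results of these data known, so the tests below describe these arrays and are no independent evidence.

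Mice with and without the receptor BLT1 were given crystalline silica (CS) into the trachea, and lungs with the tumor allele KRasLA1 were taken at day 60 and lungs without it at day 2. BLT1 is the receptor of leukotriene B4, a lipid signal that draws neutrophils. KRasLA1 is a latent oncogenic allele that recombines spontaneously and gives rise to lung tumors. All mice were on a C57BL/6 background and 10 to 12 weeks of age per the labels. The same age is given for both days and may be the age at treatment, so age at harvest may differ between the days. At day 60 the groups were BLT1-/-KRasLA1 lungs with CS, BLT1-/-KRasLA1 lungs with phosphate-buffered saline (PBS), BLT1+/+KRasLA1 lungs with CS and BLT1+/+KRasLA1 lungs with PBS. At day 2 they were BLT1-/- lungs with CS, BLT1-/- lungs with PBS, BLT1+/+ lungs with CS and BLT1+/+ lungs with PBS, all without the tumor allele. Each CS group held 3 lungs on 1 array each, and each PBS group was 1 array of RNA pooled from 3 mice, which makes 16 arrays in 8 groups. Every day 60 lung carried KRasLA1 and no day 2 lung did, so time, any difference in age and the allele cannot be told apart. The labels call the CS lungs of a group biological replicates without naming animals; the p-values therefore rest on the spread among these arrays alone, and part of it may be technical.

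Alveolar macrophages live on the surface of the air spaces, where they take up inhaled particles and clear spent surfactant, a film made mostly of lipid. GM-CSF from the alveolar epithelium and TGF beta induce the nuclear receptor PPAR gamma in them, and PPAR gamma in turn drives genes of fatty acid binding, lipid storage and cholesterol export. Several of the 9 genes are also made elsewhere: Itgax by dendritic cells, Fabp4 by capillary endothelium and fat, Pparg and Cidec by fat, and Fabp1 and Fbp1 by the liver.

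The sequence just before the start of transcription is shown for Itgax and Plet1, whose responses to silica differed between the days, for Fbp1, which had the largest difference, and for Fabp1, which fell. Sequences are from RefSeq on build GRCm38.p6 and run 5′ to 3′ on the gene's strand, and capitals mark the motifs searched. Itgax lies at chr7:128129300-128129525 (+), Plet1 at chr9:50494275-50494524 (+), Fbp1 at chr13:62888299-62888532 (-) and Fabp1 at chr6:71199629-71199878 (+), with each stretch ending outside the annotated gene.
Itgax: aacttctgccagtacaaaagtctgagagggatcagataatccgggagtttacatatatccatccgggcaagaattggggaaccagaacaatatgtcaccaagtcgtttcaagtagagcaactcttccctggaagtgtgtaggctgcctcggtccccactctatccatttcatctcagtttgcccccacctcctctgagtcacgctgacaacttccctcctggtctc
Plet1: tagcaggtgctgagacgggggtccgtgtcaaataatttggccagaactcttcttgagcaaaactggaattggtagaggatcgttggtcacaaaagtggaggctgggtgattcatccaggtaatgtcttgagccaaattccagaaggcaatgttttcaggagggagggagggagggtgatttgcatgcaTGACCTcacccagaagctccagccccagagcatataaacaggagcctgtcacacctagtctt
Fbp1: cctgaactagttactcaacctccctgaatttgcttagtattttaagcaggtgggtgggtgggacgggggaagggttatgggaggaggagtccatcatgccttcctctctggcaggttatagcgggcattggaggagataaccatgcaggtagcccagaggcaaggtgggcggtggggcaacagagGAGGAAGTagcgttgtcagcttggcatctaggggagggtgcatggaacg
Fabp1: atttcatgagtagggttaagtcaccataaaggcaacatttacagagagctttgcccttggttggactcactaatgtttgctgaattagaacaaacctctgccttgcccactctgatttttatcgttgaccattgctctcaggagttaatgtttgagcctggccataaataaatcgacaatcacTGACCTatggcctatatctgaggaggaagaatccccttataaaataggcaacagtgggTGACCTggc

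The motif AGGTCA, the core that nuclear receptors such as PPAR gamma bind, was searched on both strands of the 250 bases before each annotated start. It was held by 14% of 32851 such windows in the genome table. Fabp1 carried it 67 and 9 bases before its start and Plet1 62 bases before its start, in both genes on the opposite strand, where it reads TGACCT in the printed sequence. Pparg carried it 28 bases before 1 of its starts and 9 bases before another. A direct repeat of AGGTCA with 1 base of any kind between the copies, the consensus of the form that PPAR gamma binds with its partner, was in 0.0335% of windows and in none of the 11 windows of the 8 genes with an entry. Only exact letters were searched, so altered copies were not counted. In Fabp1 the match 67 bases before the start lies in TGACCTatggcct, such a repeat with 1 changed base. The motif GAGGAAGT of the macrophage factor PU.1 was in 2.44% of windows and, among the genes here, only in Fbp1, 65 bases before its start and on the gene's strand. That position counts from the start used for the 250 bases searched. The printed stretch of Fbp1 is cut to 234 bases and ends short of that start. The direct repeat holds the shorter AGGTCA, and a match is a description of letters, not of a bound site. Fabp4 had no entry in the table.

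The lung label was borne out by Sftpc of alveolar type 2 cells and Scgb1a1 of club cells, whose levels averaged 14.35 and 14.33 over the 16 arrays on the log2 scale of the deposited values, and by Pecam1 of endothelium at 12.45. Ltb4r1, the gene of BLT1, lay between 7.22 and 7.63 on every array. At day 2 it was at 7.35 to 7.43 in BLT1-/- CS lungs, against 7.56 to 7.63 in BLT1+/+ CS lungs. The pools of day 2 went the other way, at 7.56 in BLT1-/- and 7.40 in BLT1+/+, and the CS lungs of day 60 overlapped between the genotypes. Whether its probe set lies in the deleted part is not known here, so it is no check of the labels. Signal of the Y-linked gene Eif2s3y was high on 3 arrays, with 9.04 in the BLT1-/-KRasLA1 PBS pool, 9.68 in the BLT1+/+KRasLA1 PBS pool and 10.09 in the second CS lung of BLT1+/+KRasLA1, against 4.27 to 4.74 on the other 13 arrays. The sex-linked gene Xist was at 6.61 in that CS lung and at 12.16 and 12.32 in those pools, against 12.75 to 13.06 on the other 13 arrays. The 3 arrays with Y-linked signal all belong to day 60, and calls or signs that change when 1 of them is left out are given with the result. Both day 60 pools but only 1 CS lung had the signal, so it goes in part with treatment at day 60. Its part in the day 60 responses was not tested.

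At day 60 silica set 5 of the 9 genes apart from PBS: Itgax, Plet1, Fbp1 and Cd200r4 were higher and Fabp1 was lower, with the same direction in both BLT1 genotypes. Over all genes 4.02% passed the same test (adjusted p under 0.05 in limma, mean of the responses of both genotypes), 3.35% higher and 0.677% lower. Fabp4, Pparg, Krt79 and Cidec did not pass. In 5 of the 9 genes all 6 CS lungs lay above both PBS pools, against 9.66% of all genes, and in 2 all 6 lay below, against 7.76%. At an unadjusted p under 0.05 there were 7, where 14.1% of all genes had one. The median difference over the 9 genes was 0.33 log2 units, against -0.03 over all genes.

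**Figure D1:**
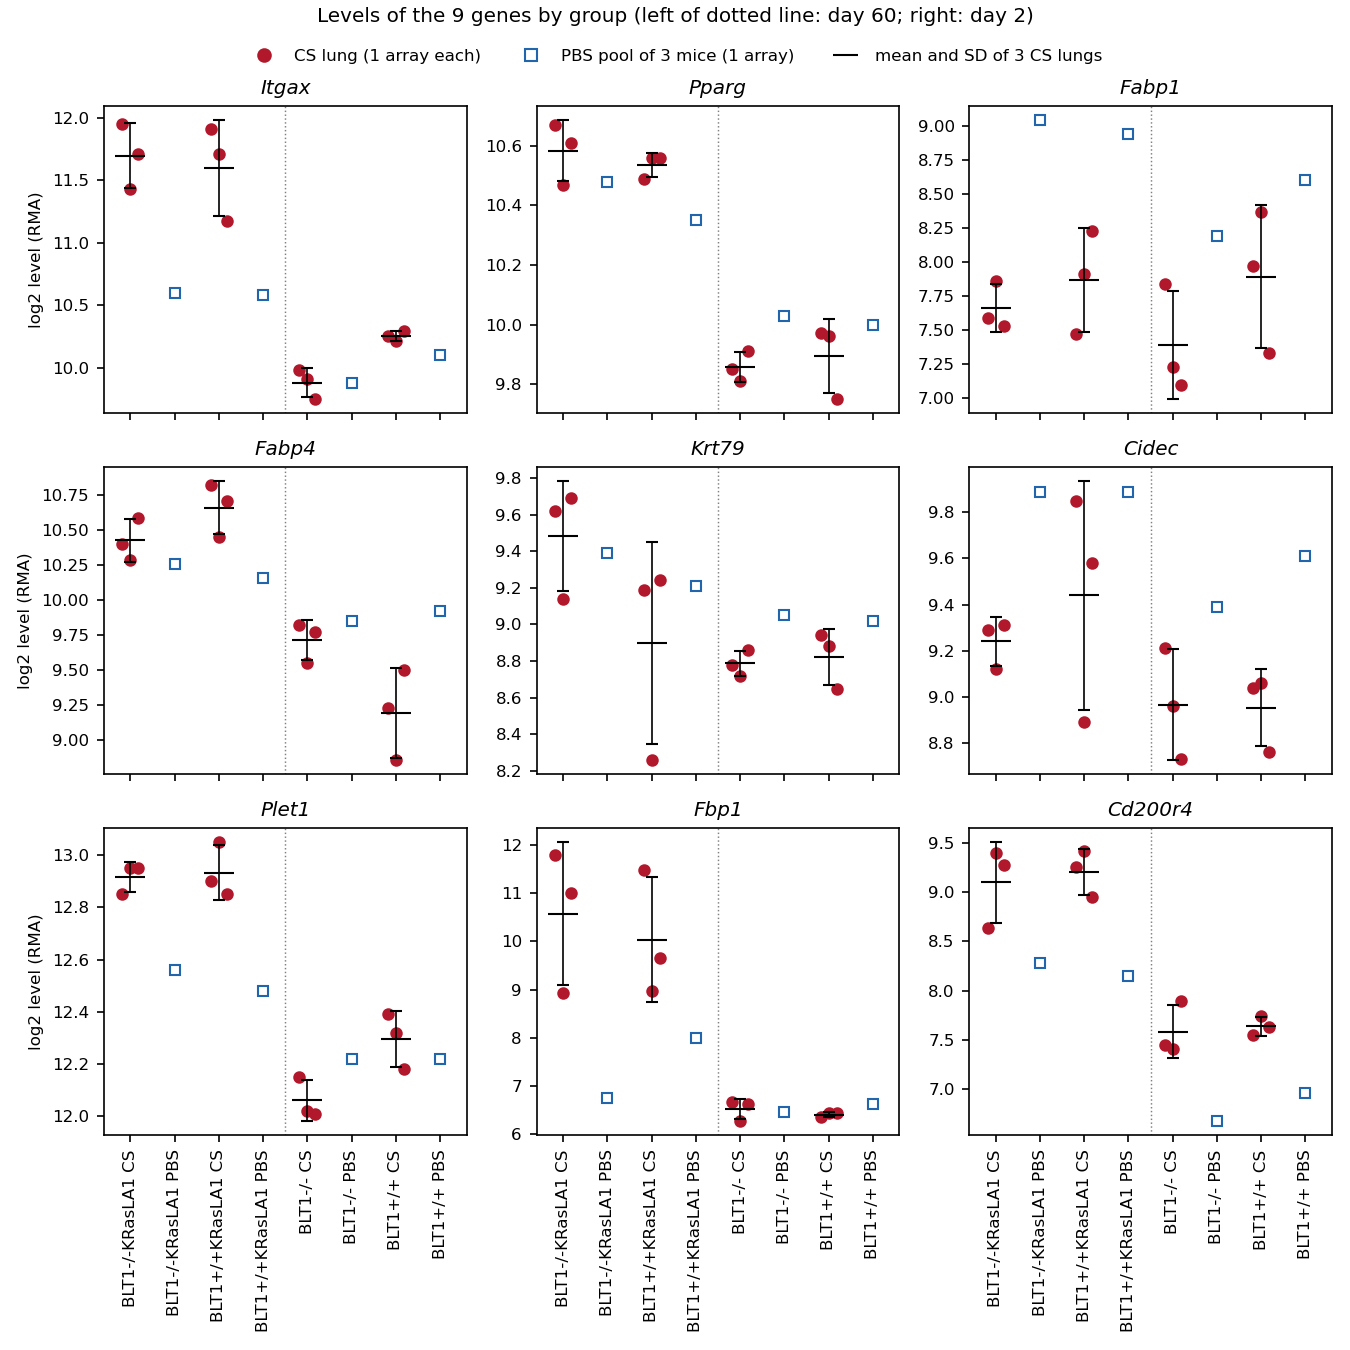
Log2 level of each of the 9 genes on every array, with CS lungs as filled points, their mean and SD (n = 3) as bars, and each PBS pool as an open square. The 4 groups left of the dotted line are day 60 KRasLA1 lungs and the 4 to the right are day 2 lungs, and each panel has its own scale. The 6 CS lungs of day 60 lie above both PBS pools of that day in Itgax, Fabp4, Plet1, Fbp1 and Cd200r4 and below both in Fabp1 and Cidec.

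Itgax encodes CD11c, an integrin chain of alveolar macrophages and dendritic cells (probe set 10557895). It was at 11.95, 11.43 and 11.71 in BLT1-/-KRasLA1 CS lungs, against 10.60 in their PBS pool. In BLT1+/+KRasLA1 CS lungs it was at 11.91, 11.71 and 11.17, against 10.58 in their pool. The CS lungs of the genotypes overlapped each other and none reached down to a pool. The mean response was 1.05 ± 0.16 log2 units (SE), a 2.08-fold rise (adjusted p = 0.0019), with all 6 lungs above their own pool. In bulk lung RNA, more cells of a type and more RNA per cell cannot be told apart.

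Plet1, a membrane-anchored surface protein found on alveolar macrophages and some epithelia (probe set 10585186), had a small and even shift. Its levels were 12.85, 12.95 and 12.95 in BLT1-/-KRasLA1 CS lungs, against 12.56 in their PBS pool, and 12.90, 13.05 and 12.85 in BLT1+/+KRasLA1 CS lungs, against 12.48 in theirs. All 6 CS lungs lay between 12.85 and 13.05, above both pools. The rise was 1.32-fold (0.40 ± 0.07, adjusted p = 0.00523).

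Cd200r4, a receptor-like member of the CD200 receptor family on myeloid cells (probe set 10435920), was at 8.63, 9.39 and 9.27 in BLT1-/-KRasLA1 CS lungs, against 8.28 in their PBS pool. In BLT1+/+KRasLA1 lungs it was at 9.25, 9.41 and 8.95 after CS, against 8.15 in the pool. BLT1-/-KRasLA1 CS replicate 1 lay closest to the pools, and no CS lung reached them. The rise was 1.92-fold (0.94 ± 0.19, adjusted p = 0.0109). Genes of this family are close copies, and whether their probe sets share signal was not tested.

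Fbp1 encodes fructose-1,6-bisphosphatase, an enzyme of gluconeogenesis (probe set 10410007). It was at 11.80, 8.93 and 11.00 in BLT1-/-KRasLA1 CS lungs, against 6.75 in their PBS pool, and at 11.48, 8.97 and 9.66 in BLT1+/+KRasLA1 CS lungs, against 7.99 in their pool. The CS lungs spread widely in both genotypes, and replicate 2 was the lowest of each, but all 6 lay above both pools. On the linear scale the highest of the 6 was 7.32 times the lowest. The mean response was 2.93 ± 0.63, a 7.64-fold rise (adjusted p = 0.0171). Its SD within CS groups, 0.99, was the largest of the 9, and the 95% interval of the response ran from 1.58 to 4.29. With robust eBayes the adjusted p was 0.0945 and with the day 60 arrays alone 0.0788.

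Fabp1, which binds long-chain fatty acids (probe set 10538965), went the other way. It was at 7.59, 7.86 and 7.53 in BLT1-/-KRasLA1 CS lungs, against 9.04 in their PBS pool, and at 7.47, 7.91 and 8.23 in BLT1+/+KRasLA1 CS lungs, against 8.94 in theirs. All 6 CS lungs were below both pools. The level was 2.34-fold lower after silica (-1.23 ± 0.26, adjusted p = 0.0144).

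Cidec, which enlarges lipid droplets (probe set 10546929), had levels of 9.29, 9.12 and 9.31 in BLT1-/-KRasLA1 CS lungs, against 9.89 in their PBS pool, and of 9.85, 8.89 and 9.58 in BLT1+/+KRasLA1 CS lungs, against 9.89 in theirs. All 6 lay below both pools, 1 of them by a narrow margin, and the difference of -0.55 ± 0.19 did not pass (adjusted p = 0.173). Fabp4, another fatty acid carrier and a textbook target of PPAR gamma (probe set 10497265), was at 10.40, 10.29 and 10.59 in BLT1-/-KRasLA1 CS lungs, against 10.26 in their pool. In BLT1+/+KRasLA1 lungs it was at 10.82, 10.45 and 10.71 after CS, against 10.16 in the pool. The CS lungs were all above the pools, and the difference of 0.33 ± 0.15 did not pass (adjusted p = 0.306).

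Pparg itself, the gene of PPAR gamma (probe set 10540897), was at 10.67, 10.47 and 10.61 in BLT1-/-KRasLA1 CS lungs, against 10.48 in their PBS pool, and at 10.49, 10.56 and 10.56 in BLT1+/+KRasLA1 CS lungs, against 10.35 in theirs. CS lungs and pools overlapped, and the response of 0.14 ± 0.08 did not pass (adjusted p = 0.455). Its 95% interval ran from -0.02 to 0.31, so a change of the size seen in Itgax lies outside it. Krt79, a keratin gene that alveolar macrophages express (probe set 10432897), was at 9.62, 9.14 and 9.69 in BLT1-/-KRasLA1 CS lungs, against 9.39 in their pool, and at 9.19, 8.26 and 9.24 in BLT1+/+KRasLA1 CS lungs, against 9.21 in theirs. BLT1+/+KRasLA1 CS replicate 2 stood below the other lungs of its group, and the response was -0.11 ± 0.21 (adjusted p = 0.888). Without that lung it was 0.05 (adjusted p = 0.936).

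These day 60 calls rest on both PBS pools together, and both pools carried the Y-linked signal. In an additive fit of the day 60 arrays without the BLT1-/-KRasLA1 pool none of the 5 passed: Itgax had a difference of 1.01 (adjusted p = 0.159), Plet1 0.45 (0.0998), Cd200r4 1.06 (0.163), Fbp1 2.04 (0.567) and Fabp1 -1.07 (0.136), with the adjusted p in brackets. Without the BLT1+/+KRasLA1 pool the differences were 1.09 for Itgax (0.105), 0.36 for Plet1 (0.134), 0.82 for Cd200r4 (0.286), 3.82 for Fbp1 (0.181) and -1.38 for Fabp1 (0.0525), and again none passed. Each fit is left with 1 pool, so its difference is the response of the genotype that kept its pool, taken up again below. The directions therefore only repeat those of the genotypes and are no further check. Far fewer of all genes passed in either fit than with both pools. Leaving out any 1 of the 12 CS lungs, BLT1+/+KRasLA1 CS replicate 2 among them, left 5 genes called.

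Taken in 1 genotype at a time, each against a single pool, only Itgax in BLT1-/-KRasLA1 lungs passed (1.09 ± 0.22, adjusted p = 0.0334), where 1.17% of all genes did, 1.1% as higher and 0.0702% as lower. Its call was lost without BLT1-/-KRasLA1 CS replicate 3 (adjusted p = 0.104) and without BLT1+/+ CS replicate 2 (0.0559), a day 2 lung that enters through the shared error. In the same lungs Fbp1 had 3.82 ± 0.89 (adjusted p = 0.0574). It was called without BLT1-/-KRasLA1 CS replicate 2 (4.65, adjusted p = 0.0123), and at 3.82 without BLT1+/+KRasLA1 CS replicate 1 (0.0266) or 2 (0.046). Cd200r4 was called without BLT1-/-KRasLA1 CS replicate 1 (1.05, adjusted p = 0.0202) and Fabp1 without BLT1+/+ CS replicate 3 (-1.38, adjusted p = 0.0431). In BLT1+/+KRasLA1 lungs none of the 9 passed, against 0.762% of all genes, 0.687% higher and 0.0752% lower, with Itgax at 1.01 ± 0.22 (adjusted p = 0.0594) and 6 genes at an unadjusted p under 0.05, as 9.71% of all genes were. There Itgax was called without BLT1-/-KRasLA1 CS replicate 1 (adjusted p = 0.044) or BLT1+/+KRasLA1 CS replicate 3 (1.22, adjusted p = 0.00241). Cd200r4 was called without the same lungs (0.0241 and 0.0398), and Plet1 without BLT1+/+KRasLA1 CS replicate 3 (0.0259) or BLT1+/+ CS replicate 1 (0.0486) or 3 (0.0468).

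At day 2 the picture was different: only Cd200r4 was higher in CS lungs than in the PBS pools, and Itgax, Plet1 and Fbp1 showed no difference that passed. Over all genes 12.4% passed at this day, 8.03% higher and 4.37% lower, so 1 of 9 is no larger a share. The 4 lipid and identity genes Fabp4, Cidec, Pparg and Krt79 lay below both pools in all 6 CS lungs, against 10% of all genes, and 1 gene lay above both, against 12.1%. At an unadjusted p under 0.05 there were 4 of the 9, where 24.8% of all genes had one. The median difference over the 9 was -0.14, against -0.02 over all genes.

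Cd200r4 was at 7.45, 7.41 and 7.89 in BLT1-/- CS lungs, against 6.68 in their PBS pool, and at 7.55, 7.74 and 7.63 in BLT1+/+ CS lungs, against 6.96 in theirs. All 6 CS lungs were above both pools. The rise was 1.74-fold (0.80 ± 0.19, adjusted p = 0.0137). Without the BLT1-/- pool it was 0.68 and not called, while the call was kept without the BLT1+/+ pool. Within BLT1-/- lungs alone the difference was 0.91 ± 0.26 (adjusted p = 0.0563, and 0.0332 with the replicate block described below). None of the 9 passed there without the block, against 6.6% of all genes, 5.19% higher and 1.4% lower, and 2 had an unadjusted p under 0.05, as 23.8% of all genes did. Without BLT1-/-KRasLA1 CS replicate 1 Cd200r4 was called there (adjusted p = 0.0187).

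Fabp1 had levels of 7.84, 7.23 and 7.10 in BLT1-/- CS lungs, against 8.19 in their PBS pool, and of 7.97, 8.37 and 7.33 in BLT1+/+ CS lungs, against 8.60 in theirs. Each lung was below its own pool, though BLT1+/+ CS replicate 2 was above the other one. The difference was -0.76 ± 0.26 and did not pass (adjusted p = 0.0721), but was called without BLT1-/- CS replicate 1 (-0.87, adjusted p = 0.0335) or BLT1+/+ CS replicate 2 (-0.88, adjusted p = 0.0384). Fabp4 was at 9.82, 9.55 and 9.77 in BLT1-/- CS lungs, against 9.85 in their pool, and at 9.23, 8.86 and 9.50 in BLT1+/+ CS lungs, against 9.92 in theirs. The lower values were all in BLT1+/+ lungs, and the mean difference was -0.43 ± 0.15 (adjusted p = 0.0732), called without BLT1+/+ CS replicate 3 (-0.50, adjusted p = 0.0269).

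Cidec was at 9.21, 8.96 and 8.73 in BLT1-/- CS lungs, against 9.39 in their PBS pool, and at 9.04, 9.06 and 8.76 in BLT1+/+ CS lungs, against 9.61 in theirs. It lay below the pools by 0.54 ± 0.19 log2 units (difference -0.54, adjusted p = 0.0909), and was called without BLT1+/+KRasLA1 CS replicate 2, a day 60 lung that enters through the shared error (adjusted p = 0.0164). Same-numbered CS lungs of the genotypes deviated together at day 2, and a fit with the replicate number as a block therefore goes beside these values. That fit blocked the day 60 lungs by number as well, although those lungs did not deviate together. In it Fabp1 (adjusted p = 0.0264), Fabp4 (0.0103) and Cidec (0.0166) passed as lower and Cd200r4 as higher, so 4 of 9 were called, against 16.5% of all genes in that fit. Within BLT1+/+ lungs the block called Fabp4 alone (-0.72, adjusted p = 0.0155) and 3.66% of all genes, where no gene of the 9 passed without it, against 1.16% of all genes, 0.853% higher and 0.311% lower, and 3 had an unadjusted p under 0.05, as 12.3% of all genes did.

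Pparg was at 9.85, 9.81 and 9.91 in BLT1-/- CS lungs, against 10.03 in their PBS pool, and at 9.97, 9.96 and 9.75 in BLT1+/+ CS lungs, against 10.00 in theirs (difference -0.14 ± 0.08, adjusted p = 0.282). Krt79 was at 8.78, 8.72 and 8.86 in BLT1-/- CS lungs, against 9.05 in their pool, and at 8.94, 8.88 and 8.65 in BLT1+/+ CS lungs, against 9.02 in theirs (-0.23 ± 0.21, adjusted p = 0.582). All 6 CS lungs were below both pools in both genes, by amounts too small for the test to call.

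Itgax was at 9.98, 9.91 and 9.75 in BLT1-/- CS lungs, against 9.88 in their PBS pool, and at 10.25, 10.21 and 10.29 in BLT1+/+ CS lungs, against 10.10 in theirs (0.08 ± 0.16, adjusted p = 0.826). Plet1 was at 12.15, 12.02 and 12.01 in BLT1-/- CS lungs, against 12.22 in their pool, and at 12.39, 12.32 and 12.18 in BLT1+/+ CS lungs, against 12.22 in theirs (-0.05 ± 0.07, adjusted p = 0.759). Fbp1 was at 6.68, 6.28 and 6.62 in BLT1-/- CS lungs, against 6.46 in their pool, and at 6.35, 6.44 and 6.44 in BLT1+/+ CS lungs, against 6.63 in theirs (-0.08 ± 0.63, adjusted p = 0.961). In all 3 genes CS lungs lay on both sides of the pools. Fbp1 was close to uniform among the 6 day 2 lungs, with an SD of 0.15, against 1.28 among the 6 day 60 lungs, while the error above comes from 1 spread shared by both days.

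**Figure D2:**
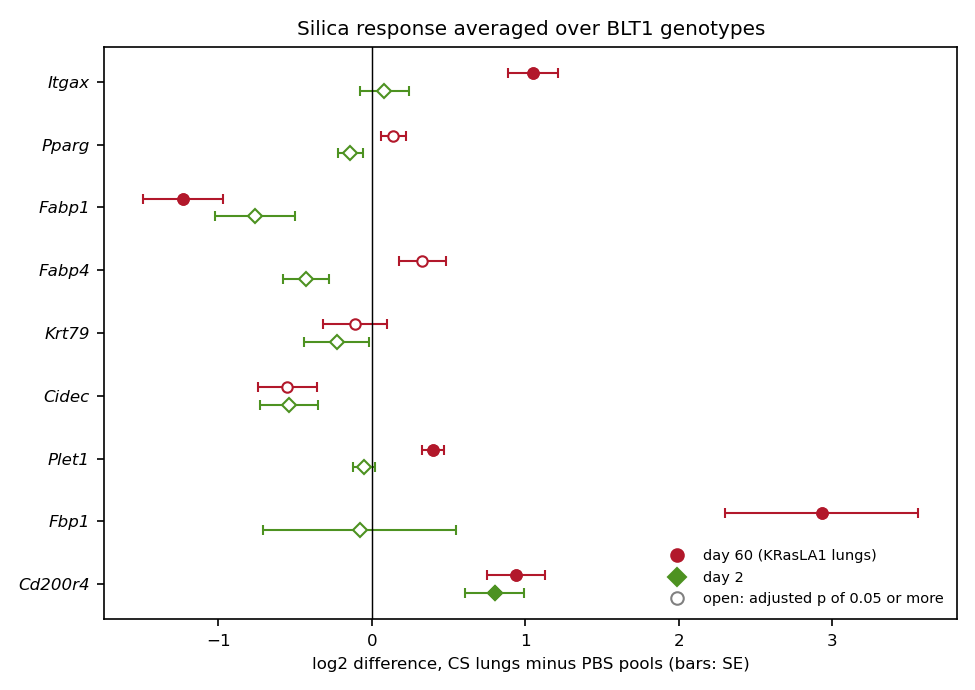
Silica response of each gene, as the log2 difference between CS lungs and PBS pools averaged over the BLT1 genotypes, with standard errors as bars. Circles are day 60 KRasLA1 lungs and diamonds day 2 lungs, filled where the adjusted p was under 0.05. Itgax, Plet1 and Fbp1 lie right of 0 at day 60 and near 0 at day 2, Cd200r4 lies right of 0 at both days, and Fabp1 lies left of 0 at both.

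The responses of the days were compared directly. Itgax responded more at day 60 than at day 2, by 0.98 ± 0.22 log2 units (adjusted p = 0.038), and so did Plet1, by 0.45 ± 0.10 (adjusted p = 0.0329). These were 2 of the 9 genes, against 2.35% of all genes, 1.7% with a larger and 0.657% with a smaller value at day 60. Fbp1 differed by 3.01 ± 0.89 (adjusted p = 0.111) and Fabp4 by 0.76 ± 0.21 (adjusted p = 0.0777), and neither passed. Both did with the replicate block (0.000857 and 0.0111), which called 4.57% of all genes. The block paired lungs by number at day 60 too, where same-numbered lungs did not deviate together over all genes. For Cd200r4 the difference of responses was 0.14, with a 95% interval from -0.42 to 0.71, for Fabp1 -0.47 (-1.25 to 0.30), and for Cidec -0.01 (-0.60 to 0.58).

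Both calls lay near the threshold and were lost when any 1 of several lungs was left out. Itgax was no longer called when BLT1-/-KRasLA1 CS replicate 3 (adjusted p = 0.0667), BLT1+/+KRasLA1 CS replicate 2 (0.0597), BLT1-/- CS replicate 2 (0.0552) or 3 (0.05), or BLT1+/+ CS replicate 2 (0.0728) or 3 (0.0585) was left out, with differences between 0.94 and 0.99. Plet1 was no longer called without BLT1-/-KRasLA1 CS replicate 2 (0.0627) or 3 (0.0635), BLT1+/+KRasLA1 CS replicate 1 (0.0505), BLT1-/- CS replicate 2 (0.0534) or BLT1+/+ CS replicate 2 (0.0588), with differences from 0.44 to 0.46. Fbp1 was called, at 3.42, without BLT1-/-KRasLA1 CS replicate 2 (0.0193), and Fabp4, at 0.84, without BLT1+/+ CS replicate 3 (0.0336).

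Among CS lungs, day 60 stood above day 2 in 6 of the 9 genes, with no overlap between the 6 lungs of either day. Over all genes 26.1% differed between these lungs, 12.2% as higher, while 6.47% were higher and 6.93% lower without overlap. Fbp1 had its lowest, median and highest level at 8.93, 10.33 and 11.80 at day 60, against 6.28, 6.44 and 6.68 at day 2, a 14.3-fold difference of means (3.84 ± 0.44, adjusted p = 4.07e-05). Itgax ran over 11.17, 11.71 and 11.95 at day 60, against 9.75, 10.10 and 10.29 at day 2 (2.99-fold, 1.58 ± 0.11, adjusted p = 1.28e-06). In neither gene did a lung of one day reach the range of the other.

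Cd200r4 ran over 8.63, 9.26 and 9.41 at day 60, against 7.41, 7.59 and 7.89 at day 2 (2.91-fold, 1.54 ± 0.13, adjusted p = 4.9e-06). Fabp4 ran over 10.29, 10.52 and 10.82 at day 60, against 8.86, 9.52 and 9.82 at day 2 (2.13-fold, 1.09 ± 0.10, adjusted p = 1.07e-05). The smaller differences of Plet1 (1.68-fold, 0.75 ± 0.05, adjusted p = 9.33e-07) and Pparg (1.61-fold, 0.68 ± 0.05, adjusted p = 2.63e-06) had the smallest errors of the 9. Krt79 (0.38 ± 0.15, adjusted p = 0.0813), Cidec (0.38 ± 0.14, adjusted p = 0.0573) and Fabp1 (0.12 ± 0.18, adjusted p = 0.685) overlapped between the days. Without BLT1+/+KRasLA1 CS replicate 2 alone, Krt79 (0.54, adjusted p = 0.00156) and Cidec (0.52, adjusted p = 0.00186) were both called. Krt79 also passed without BLT1-/-KRasLA1 CS replicate 2 (0.47, adjusted p = 0.0408) and Cidec without BLT1-/- CS replicate 1 (0.44, adjusted p = 0.0398). With the replicate block Krt79 (adjusted p = 0.00398) and Cidec (0.00976) passed too, where 29.1% of all genes did.

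The PBS pools showed part of the same difference without silica. All 9 genes were higher in both day 60 pools than in both day 2 pools, a pattern shared by 19.3% of all genes, with 17.6% lower in both, and 1 of the 9 passed the test, against 0.396% of all genes. Cd200r4 was at 8.28 and 8.15 in the BLT1-/-KRasLA1 and BLT1+/+KRasLA1 pools, against 6.68 and 6.96 in the BLT1-/- and BLT1+/+ pools, a 2.63-fold difference (1.40 ± 0.23, adjusted p = 0.0247). Its difference between the pools was about as large as that between the CS lungs of the days. For the other genes the difference between pools was 0.60 ± 0.19 in Itgax, 0.40 ± 0.09 in Pparg (adjusted p = 0.0934), 0.60 ± 0.31 in Fabp1, 0.83 ± 0.77 in Fbp1, 0.39 ± 0.24 in Cidec, 0.32 ± 0.18 in Fabp4, 0.30 ± 0.09 in Plet1 and 0.26 ± 0.26 in Krt79. In Fbp1 the BLT1+/+KRasLA1 pool, at 7.99, stood above the other 3 pools, which lay between 6.46 and 6.75. The pools have no replicates, so these errors assume that a pool varies like a CS lung, and both day 60 pools carry the Y-linked signal given above; its part in the result was not tested.

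**Figure D3:**
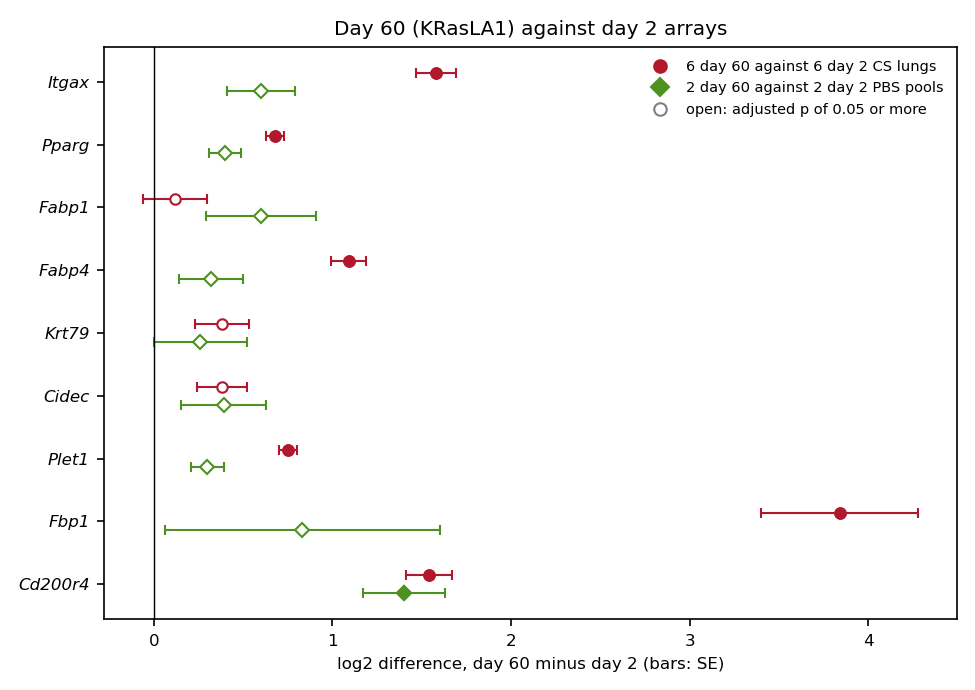
Log2 difference of each gene between day 60 and day 2, in CS lungs (circles) and in PBS pools (diamonds), with standard errors as bars and filled points where the adjusted p was under 0.05. In CS lungs 6 of the 9 genes are filled, from Pparg at 0.68 to Fbp1 at 3.84, and among the pools only Cd200r4, at 1.40. Every value lies right of 0.

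The order of the groups by level differed between genes. In Itgax, Plet1, Cd200r4 and Fbp1 both day 60 CS groups came first, then both day 60 pools, then the day 2 groups, and the step below the CS groups was larger than the gene's SD within CS groups. In Itgax the day 60 CS means were 11.69 ± 0.26 in BLT1-/-KRasLA1 and 11.60 ± 0.38 in BLT1+/+KRasLA1 lungs (SD, n = 3 each), a step within that spread, and the 4 day 2 groups ran from 10.25 to 9.88 in steps that were also within it. In Fbp1 the 5 lowest groups, from 6.75 to 6.41, differed from their neighbours by less than its SD. Fabp1 and Cidec had the PBS pools of day 60 on top, and in Fabp1 all 4 pools came above all 4 CS groups. None of the 7 steps between neighbours in Cidec and Krt79 was larger than the SD of the gene, and in Fabp1 only 1 was, between the BLT1+/+ pool at 8.60 and the BLT1-/- pool at 8.19.

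Loss of BLT1 made no difference that passed in any of the 9 genes among CS lungs, at either day. Over all genes 0.0401% passed at day 60 and 0.0201% at day 2, and at an unadjusted p under 0.05 there were 1 of the 9 at day 60, where 4.06% of all genes had one, and 3 at day 2, where 8.7% had one. At day 60 that gene was Krt79, at 9.62, 9.14 and 9.69 in BLT1-/-KRasLA1 lungs, against 9.19, 8.26 and 9.24 in BLT1+/+KRasLA1 lungs (0.59 ± 0.21, adjusted p = 0.967), with overlap. Without BLT1+/+KRasLA1 CS replicate 2 the difference in Krt79 was 0.27. At day 2 Fabp4 was at 9.55 to 9.82 in BLT1-/- CS lungs, against 8.86 to 9.50 in BLT1+/+ CS lungs, and did not pass (0.51 ± 0.15, adjusted p = 0.278). Itgax was at 9.75 to 9.98 in BLT1-/- CS lungs of that day, against 10.21 to 10.29 in BLT1+/+ CS lungs (-0.37 ± 0.16, adjusted p = 0.523). Plet1 was at 12.01 to 12.15 in the former, against 12.18 to 12.39 in the latter (-0.24 ± 0.07, adjusted p = 0.312). Neither gene passed. In the BLT1-/- and BLT1+/+ PBS pools of day 2 Itgax was at 9.88 and 10.10. Plet1 was at 12.22 in both pools, and Fabp4 at 9.85 and 9.92.

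For the silica response itself, 0 of the 9 genes and 0 of all genes passed the test of a BLT1 by silica interaction in limma, at either day, and 0 of the 9 had an unadjusted p under 0.05. Among all genes 396 had one at day 60 and 896 at day 2. The intervals were wide: for Itgax the interaction at day 60 was 0.08, with a 95% interval from -0.60 to 0.76, and for Fbp1 it was 1.78 (-0.93 to 4.48). At day 2 the interaction was 0.58 for Fabp4 (-0.04 to 1.21) and -0.24 for Plet1 (-0.55 to 0.06). A difference of 1 log2 unit between genotypes in the response of Fbp1 was therefore not detectable with these arrays.

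Lists of related genes, chosen like the 9 genes with earlier results known, show what moved around them. Of 14 other genes of alveolar macrophages, silica at day 60 raised 5 and lowered 1, with a median of 0.36 against -0.03 over all genes. Slc39a2, a zinc transporter (1.33 ± 0.15, adjusted p = 0.000288), Atp6v0d2, a proton pump subunit (0.99 ± 0.13, adjusted p = 0.00111), F7, coagulation factor VII (0.46 ± 0.08, adjusted p = 0.00462), Chil3, a chitinase-like protein (0.93 ± 0.17, adjusted p = 0.00638) and Olr1, a scavenger receptor (0.93 ± 0.18, adjusted p = 0.009) rose, and Il18, a cytokine (-0.48 ± 0.12, adjusted p = 0.0405), fell. At day 2 there were 6 higher and 2 lower: F7 (0.56 ± 0.08, adjusted p = 0.000836), Olr1 (1.09 ± 0.18, adjusted p = 0.00198) and Marco, a receptor for inhaled particles (0.95 ± 0.18, adjusted p = 0.00443), rose, and the cholesterol exporter Abcg1 fell (-0.51 ± 0.11, adjusted p = 0.0088). Siglecf, a lectin that marks resident alveolar macrophages, fell too (-0.35 ± 0.10, adjusted p = 0.0391). Il18, Olr1 at day 60 and Siglecf lie outside the rule for named genes and were chosen after their values were seen.

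Of 17 genes of PPAR gamma signalling and lipid handling, 3 rose and 1 fell at day 60. Lipa, the lysosomal lipase that frees cholesterol (0.63 ± 0.08, adjusted p = 0.000511), Fabp5, a fatty acid carrier (0.85 ± 0.12, adjusted p = 0.00135), and Npc1, which exports cholesterol from lysosomes (0.26 ± 0.06, adjusted p = 0.0329), rose, and the fatty acid receptor Cd36 fell (-0.18 ± 0.05, adjusted p = 0.0477). The count dropped to 2 higher and 0 lower without BLT1-/-KRasLA1 CS replicate 2 or 3 or without BLT1+/+KRasLA1 CS replicate 2. At day 2 none rose and 5 fell: Abca1, a cholesterol exporter (-0.65 ± 0.07, adjusted p = 0.000255), Abcg1 (-0.51 ± 0.11, adjusted p = 0.0088), Cd36 (-0.22 ± 0.05, adjusted p = 0.00925), Apoe, a cholesterol-carrying apolipoprotein (-0.41 ± 0.10, adjusted p = 0.0192) and Pltp, the phospholipid transfer protein (-0.62 ± 0.18, adjusted p = 0.0364), which was chosen after its value was seen. With the replicate block 2 rose and 5 fell at day 2. Plin2, a lipid droplet coat protein, was at 0.49 ± 0.19 at day 60 (adjusted p = 0.227) and at 0.48 ± 0.19 at day 2 (adjusted p = 0.124).

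Of 16 genes of the signals that induce alveolar macrophages, 8 rose and 0 fell at day 60, and 5 rose and 1 fell at day 2. The shared chain of the GM-CSF receptor, Csf2rb (1.01 ± 0.14, adjusted p = 0.0013), and its close copy Csf2rb2 (1.03 ± 0.13, adjusted p = 0.000807) rose 2.01-fold and 2.04-fold at day 60, though whether their probe sets share signal was not tested. Spi1, the gene of PU.1 (0.71 ± 0.11, adjusted p = 0.00205), and Bhlhe40, a transcription factor (0.61 ± 0.12, adjusted p = 0.00938), rose as well. At day 2 Bhlhe40 (1.01 ± 0.12, adjusted p = 0.000293), Egr2, a transcription factor (0.71 ± 0.15, adjusted p = 0.00701) and Csf2rb2 (0.59 ± 0.13, adjusted p = 0.0114) rose and Stat5b, which carries the GM-CSF signal to the nucleus, fell (-0.31 ± 0.07, adjusted p = 0.0126).

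Relatives of the 9 in their gene families were called unevenly at day 60. Of 7 other fatty acid binding proteins Fabp5 rose (0.85 ± 0.12, adjusted p = 0.00135) and Fabp3 fell (-0.62 ± 0.11, adjusted p = 0.00523), and at day 2 Fabp3 alone fell (-0.59 ± 0.11, adjusted p = 0.00371). Of the 4 measured genes of CD200 and its receptors, Cd200r2 (0.95 ± 0.16, adjusted p = 0.00352) and Cd200r1 (0.84 ± 0.19, adjusted p = 0.0212) rose at day 60 beside Cd200r4, and none passed at day 2, where 1 rose without BLT1-/-KRasLA1 CS replicate 1 or BLT1+/+KRasLA1 CS replicate 3, and with the replicate block. Of 5 integrin chains Itgb2, the beta 2 partner of Itgax (0.95 ± 0.12, adjusted p = 0.000526), Itgae, the alpha E chain, which pairs with beta 7 (0.63 ± 0.09, adjusted p = 0.00169), and Itgam, or CD11b (1.37 ± 0.24, adjusted p = 0.00552), rose at day 60. Of the 6 other enzymes of gluconeogenesis none passed at day 60, with Fbp2 at -0.18 ± 0.14 (adjusted p = 0.658) and Pck1 at -0.18 ± 0.16 (adjusted p = 0.73), and Pcx rose at day 2 (0.34 ± 0.09, adjusted p = 0.0212), where the replicate block added 1 that fell. Of 7 CIDE and perilipin genes only Cideb passed, at day 60 (0.64 ± 0.15, adjusted p = 0.0251), and it was lost without BLT1-/-KRasLA1 CS replicate 3 (adjusted p = 0.055) or BLT1+/+KRasLA1 CS replicate 1 (0.0523). At day 2 none of them passed, 1 rose without BLT1+/+ CS replicate 1, and 1 rose and 1 fell with the replicate block.

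Calls among markers of other cells differed between lists and days. Of 12 markers of monocytes and recruited macrophages, 10 rose and 0 fell at day 60, with a median of 0.84, led by Mmp12, an elastin-degrading protease (3.24 ± 0.21, adjusted p = 3.86e-06), Gpnmb, a glycoprotein of lipid-laden macrophages (1.92 ± 0.22, adjusted p = 0.000324), the complement chain C1qb (0.98 ± 0.13, adjusted p = 0.000863) and the lipid receptor Trem2 (1.14 ± 0.15, adjusted p = 0.000933). Their mean level per array was 10.57 to 10.87 in BLT1-/-KRasLA1 CS lungs, against 9.59 in the pool, and 10.46 to 11.01 in BLT1+/+KRasLA1 CS lungs, against 9.84 in the pool. At day 2, 5 rose and 1 fell, led by Cd14, a receptor for bacterial lipid (1.77 ± 0.19, adjusted p = 0.000172), Mmp12 (1.65 ± 0.21, adjusted p = 0.000522) and Gpnmb (1.22 ± 0.22, adjusted p = 0.00343), and 3 rose and 0 fell without BLT1+/+ CS replicate 2. Their mean level was 9.94 to 10.02 in BLT1-/- CS lungs, against 9.62 in the pool, and 10.16 to 10.29 in BLT1+/+ CS lungs, against 9.64 in the pool. The part of these cells in the values of the 9 genes was not tested.

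Of 10 dendritic cell markers, which bear on Itgax, 4 rose and 1 fell at day 60, and 0 rose and 6 fell at day 2. At day 60 Itgae (0.63 ± 0.09, adjusted p = 0.00169), Ccr7, which guides cells to lymph nodes (0.59 ± 0.11, adjusted p = 0.00619), Xcr1, a receptor of cross-presenting cells (0.55 ± 0.12, adjusted p = 0.015), and Flt3, the receptor of their growth factor (0.37 ± 0.09, adjusted p = 0.0247, chosen after its value was seen), rose and the lectin Cd209a fell (-0.66 ± 0.13, adjusted p = 0.0129). At day 2 Cd209a (-0.85 ± 0.13, adjusted p = 0.00159), Clec9a, a receptor for dead cells (-0.82 ± 0.14, adjusted p = 0.00251), Ccr7 (-0.58 ± 0.11, adjusted p = 0.0035) and Xcr1 (-0.56 ± 0.12, adjusted p = 0.00705) fell. Their mean level was 8.65 to 8.84 over the CS lungs of day 60, against 8.50 and 8.57 in the pools, and 8.19 to 8.42 over those of day 2, against 8.55 and 8.77 in the pools. Whether they contributed to Itgax was not tested.

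Fat cell markers, which bear on Fabp4, Pparg and Cidec, were uneven. Of 7 measured, none passed at day 60 and Retn, an adipokine, fell at day 2 (-1.16 ± 0.32, adjusted p = 0.0298), a call lost without BLT1+/+ CS replicate 2 (adjusted p = 0.0642) or 3 (0.0563). With the replicate block, which also called Fabp4 and Cidec as lower, 4 of the 7 fell at day 2. At day 2, 2 fell without BLT1+/+KRasLA1 CS replicate 2 or BLT1+/+ CS replicate 1, and at day 60, 1 fell without BLT1-/-KRasLA1 CS replicate 1 or BLT1+/+KRasLA1 CS replicate 3. Their mean level was 7.92 to 8.64 in BLT1-/-KRasLA1 CS lungs, against 8.71 in the pool, and 8.17 to 8.80 in BLT1+/+KRasLA1 CS lungs, against 8.65 in the pool. At day 2 it was 7.97 to 8.44 in BLT1-/- CS lungs, against 8.65 in the pool, and 7.91 to 8.17 in BLT1+/+ CS lungs, against 8.53 in the pool. Adipoq, which only fat cells make in quantity, ranged from 7.56 to 9.42 over the arrays, and the values have no zero and no detection call. Their part in the values of Cidec and Fabp4 was not tested.

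Of 9 markers of capillary endothelium, which also makes Fabp4, 0 passed at day 60 and 2 fell at day 2, Aplnr, the apelin receptor (-0.95 ± 0.17, adjusted p = 0.0035), and Gpihbp1, which anchors lipoprotein lipase (-0.43 ± 0.09, adjusted p = 0.00683). The count was 2 lower at day 60 without BLT1+/+KRasLA1 CS replicate 3, and 4 lower at day 2 without BLT1+/+ CS replicate 1. With the replicate block 5 of the 9 fell at day 2. Their mean level was 11.63 to 12.16 over the CS lungs of day 60, against 12.15 and 12.12 in the BLT1-/-KRasLA1 and BLT1+/+KRasLA1 pools, and 11.60 to 11.95 over those of day 2, against 12.22 and 12.09 in the BLT1-/- and BLT1+/+ pools. Of 5 club cell markers 3 fell at each day, at day 60 Aldh1a1 (-0.39 ± 0.07, adjusted p = 0.00411), Gsta3 (-0.54 ± 0.09, adjusted p = 0.0051) and Scgb3a2 (-0.41 ± 0.08, adjusted p = 0.0137). Liver markers, which bear on Fabp1 and Fbp1, did not pass at day 60, where leaving out BLT1-/-KRasLA1 CS replicate 1 or BLT1+/+KRasLA1 CS replicate 3 left 1 lower. At day 2 Ahsg alone was called (0.28, adjusted p = 0.0496), and leaving out any of 9 of the 12 CS lungs ended that call. Alb ranged from 7.01 to 7.71 over all arrays. Alveolar type 2 markers and mast cell and basophil markers had 0 calls at day 60 and 2 and 1 lower at day 2, with 0 and 1 lower for type 2 cells without BLT1+/+ CS replicate 2 or 3.

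**Figure D4:**
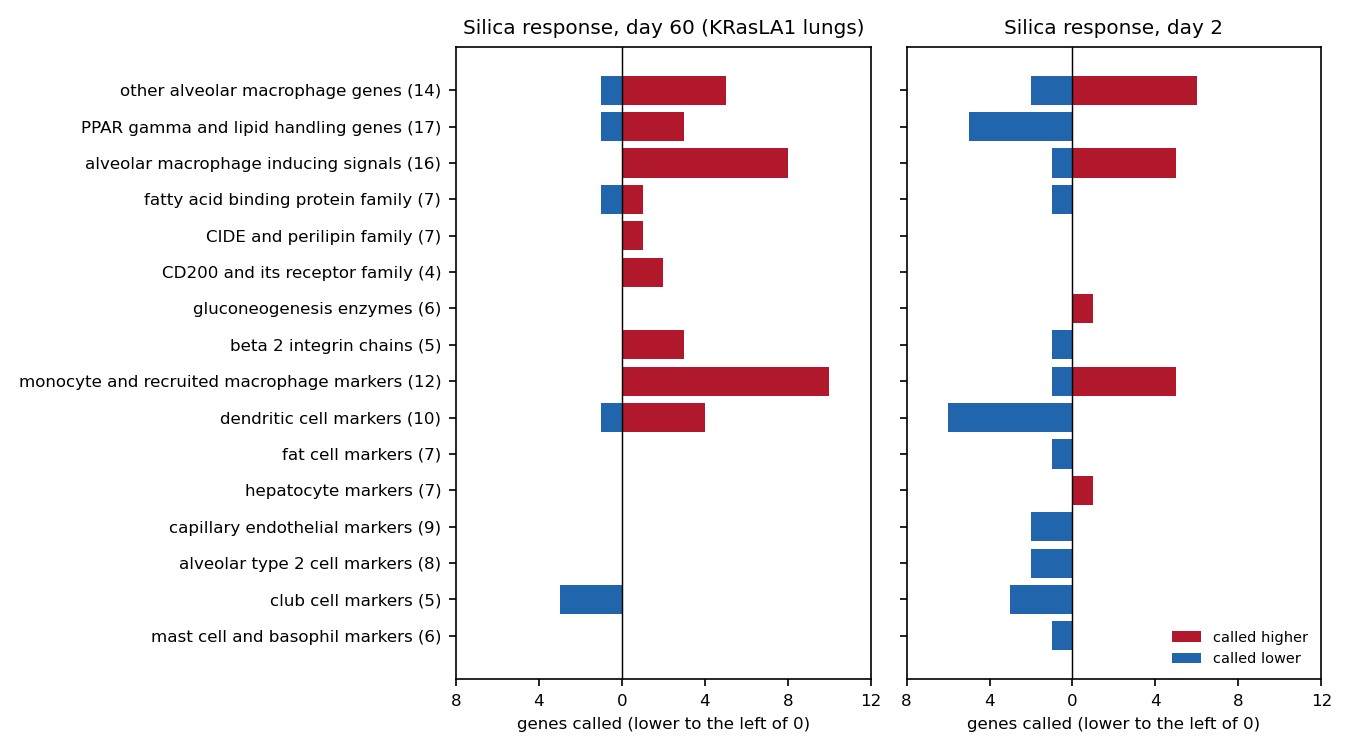
Number of genes of each list that passed as higher (right of 0) or lower (left of 0) in CS lungs than in PBS pools, at day 60 (left panel) and at day 2 (right panel), with the number measured in brackets. The recruited macrophage markers have 10 of 12 higher at day 60 and 5 of 12 at day 2, and the dendritic cell markers 4 of 10 higher at day 60 and 6 of 10 lower at day 2.

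These list calls, like the day 60 calls of the 9 genes, leaned on both pools, and far fewer of all genes passed as well when a pool was dropped. Of 29 list genes that passed and were covered by the naming rule at day 60, 4 still passed when the BLT1-/-KRasLA1 pool was dropped and 4 when the BLT1+/+KRasLA1 pool was, Mmp12 and Gpnmb in both fits. At day 2, 5 of 32 still passed when the BLT1-/- pool was dropped, and 9 when the BLT1+/+ pool was. The recruited macrophage markers then had 2 higher in each of the 4 fits, and the inducing signals 0 and 1 higher at day 60.

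Across the 8 group means, given as a description without a test because group means share arrays of a day and of a treatment, Itgax ran most closely with Plet1 (r = 0.98), Fbp1 (0.96) and Cd200r4 (0.93), and Fabp1 with Cidec (0.92). Fabp1 and Itgax were at -0.14. Within groups, over the 12 CS lungs as deviations from their group means, Krt79 ran with Cidec (0.81) and Fbp1 (0.70). Itgax was there at 0.66 with Fbp1, 0.13 with Plet1 and -0.21 with Cd200r4, and Fabp1 at 0.19 with Cidec. The lung with the lowest Krt79 and, within its group, the lowest Cidec and Fbp1 was BLT1+/+KRasLA1 CS replicate 2, the lung with the Y-linked signal.

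The genes whose 8 group means were most like those of a member were found over all genes by Pearson's r. For Itgax these were Ly75, an uptake receptor (r = 0.991), and Slc7a2, an amino acid transporter (0.991). For Plet1 it was Mpeg1, a macrophage pore-forming protein (0.995), for Fbp1 Mfge8, a bridge between dying cells and phagocytes (0.995), and H2-M2, an MHC class I-like gene (0.987), and for Cd200r4 Aldoc, an aldolase (0.991). For Fabp1 they included Gstm2, a glutathione transferase (0.987), for Cidec Cox7a1, a subunit of cytochrome oxidase (0.977), for Pparg Slc9a4, a sodium and proton exchanger (0.977), and for Fabp4 Fmod, a matrix proteoglycan (0.968). Krt79 had the least close matches, led by Mcf2l (0.944).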

How the data were processed

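Total lung RNA (250 ng) was labelled as biotinylated cRNA for Affymetrix whole-transcript arrays, per the labels' protocols. The deposited values are log2 levels of 35556 probe sets on 16 arrays, made by the authors, whose processing notes as submitters name RMA and Partek 6.6 in no stated order. RMA scales arrays to 1 distribution (array medians 8.25 to 8.34) and understates changes of dim probe sets. The platform annotation gave 21789 probe sets 1 symbol, 1621 several and 12146 none; only the first were used, with the brightest probe set of each gene, which left 19938 genes.

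A linear model with 1 mean per group took in all 16 arrays (limma 3.58.1, R 4.3.3; eBayes with a mean-variance trend, 8 residual degrees of freedom, all from CS lungs). The spread of a single pool was taken to equal that among CS lungs. The 13 contrasts were tested two-sided, with Benjamini-Hochberg adjustment over all genes and a threshold of 0.05, and every p and adjusted p is from limma. Precision is limited by how few arrays there are, with a standard error of 0.0983 log2 units for a mean response in the median gene. The script was tested on simulated data. Alternatives were another normalization (quantile, array medians, cyclic loess), dim genes left out (below the 25th percentile), no trend, robust eBayes, array weights, a replicate block, 1 day alone, the other pool, no pool of 1 genotype, mean of probe sets, and each CS lung left out.

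The members and gene lists were chosen with earlier results of these data known. The text names the 9 members, up to 4 genes per list with the smallest adjusted p among those that passed, or up to 2 with the smallest p where none did, and up to 3 genes per member with the most similar group means. Same-numbered CS lungs of the BLT1 genotypes had deviations that correlated at 0.43, 0.20 and 0.34 at day 2. The numbers were therefore taken, from the data, to pair the lungs there. At day 60 the deviations correlated at 0.09, 0.01 and 0.06, which shows no such pairing. The replicate block nevertheless used the numbers at both days, so its day 60 results rest on a pairing that these values do not bear out. The mutated gene of the KRasLA1 allele was not analysed here.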

Additional observations from a re-analysis of the deposited data

Results flagged for a closer look

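Among the 9 genes, 2 had responses to silica that differed between day 60 and day 2 in the test of the difference itself. For Itgax the response at day 60 exceeded that at day 2 by 0.98 log2 units, and for Plet1 by 0.45 log2 units. Day, tumor allele, time after silica and any difference in age go together in this comparison and cannot be told apart.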

How the results depend on the processing

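Of the 9 genes at day 60, 5 were called; among the alternatives that kept both pools the count was 4 with robust eBayes and with day 60 alone, where Fbp1 was lost, 6 with the replicate block, which added Cidec (adjusted p = 0.0351), and 5 in the others, while 0 were called without the BLT1-/-KRasLA1 pool and 0 without the BLT1+/+KRasLA1 pool. At day 2, where 1 was called, array weights gave 3, the replicate block 4, day 2 alone 2 and the fit without the BLT1-/- pool 0. For BLT1+/+ lungs at day 2, where 0 were called, the replicate block gave 1. For BLT1-/- lungs at day 2, also 0, quantile normalization, dim genes left out, array weights, the replicate block and day 2 alone gave 1 each. For BLT1+/+KRasLA1 lungs, 0 became 4 with array weights, 3 with the replicate block and 1 against the other pool. For BLT1-/-KRasLA1 lungs, 1 became 0 with array medians centred, without the trend and with day 60 alone, 5 with array weights and 3 with the replicate block. For the difference between the days' responses, 2 became 0 without the trend, 1 with robust eBayes and 4 with the replicate block. Between PBS pools, array weights gave 2 in place of 1. The replicate block moved no other count by over 1.5 times. Calls over all genes moved with the setting too. Array weights took them from 2473 to 2923 at day 2 and from 1315 to 2647 in BLT1-/- lungs at day 2. In BLT1+/+KRasLA1 lungs array weights took them from 152 to 676, and in BLT1-/-KRasLA1 lungs from 234 to 876. With the replicate block these counts were 3299, 2277, 231 and 331. Day 2 alone lowered the day 2 counts to 1589 and 425. Far fewer of all genes passed when a pool was dropped.

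Leaving out each of 12 CS lungs in turn gave 5 to 5 at day 60, 1 to 2 at day 2, 0 to 1 in BLT1-/- lungs at day 2, 0 to 3 in BLT1+/+KRasLA1, 0 to 2 in BLT1-/-KRasLA1, 0 to 2 for the difference of responses and 6 to 8 between the CS lungs of the days. Counts of 0 for BLT1 loss and for its interaction with silica stayed 0 throughout, and 1 stayed 1 between pools under these exclusions. The sign turned in Krt79 in BLT1+/+KRasLA1 lungs, to 0.01 without BLT1+/+KRasLA1 CS replicate 2 (lowest -0.48 without replicate 3), and in Cidec for BLT1 loss at day 60, to 0.01 without BLT1+/+KRasLA1 CS replicate 1 (lowest -0.47 without replicate 2). Another 53 of 2619 single-gene values changed sign, all of genes that were not called and lay within 1 SE of 0. The cause of these shifts was not tested. Single pools without replicates and 3 lungs per group limit every response.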
